A study of Mus musculus with 28 samples.

Results

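The distal-less (Dlx) and muscle-segment (Msx) homeobox genes encode transcription factors that pattern the embryonic jaws and teeth. The 8 genes described here are Dlx1, Dlx2, Dlx3, Dlx4, Dlx5, Dlx6, Msx1 and Msx2, taken by symbol from a table of read counts for 54429 mouse genes. All 8 were in the table. The counts come from RNA sequencing of the mouse line O9-1, which was established from cranial neural crest cells, in 28 libraries that form 8 groups. The question named by the study's title is how low oxygen bears on the ability of these cells to become tissues needed for the palate.

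Each culture condition was run at 21% O2 (normoxic, 4 libraries) and at 0.5% O2 (hypoxic, 3 libraries). Proliferating cells were kept in medium conditioned by STO feeder cells with serum, bFGF at 25 ng/ml and LIF at 5 ng/ml. Osteoblast cultures were held for 10 days with BMP-2 at 100 ng/ml, dexamethasone at 0.1 µM and beta-glycerophosphate. Chondrocyte cultures spent 3 days in that osteoblast medium. They then spent 7 days as micromasses on matrigel-coated plastic with BMP-2 at 50 ng/ml, TGF-beta3 at 10 ng/ml, dexamethasone at 0.1 µM and an insulin, transferrin and selenium supplement. Smooth muscle cultures received serum without the growth factors for 3 days. BMP-2, a ligand of the pathway that lies upstream of several Dlx and Msx genes, was therefore present in the chondrocyte and osteoblast groups and was not named for the other groups. Dexamethasone was named for the same groups only, and these cultures were held longer than the smooth muscle ones. BMP-2, dexamethasone and time in culture thus cannot be told apart here. All groups are 1 cell line, and the labels do not say whether the libraries of a group came from separate cultures, so p-values measure the spread between these libraries.

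In the embryo, cranial neural crest cells fill the branchial arches. Dlx genes are expressed there in nested domains: Dlx1 and Dlx2 along the whole arch, Dlx5 and Dlx6 in its lower part with Dlx3 and Dlx4 nearer the tip. Endothelin-1 acting through its receptor Ednra switches on Dlx5 and Dlx6, which give the lower jaw its identity, while BMP signals maintain Msx1 and Msx2 and are relayed by Smad proteins. Msx1 and Msx2 are mostly repressors that keep precursors undifferentiated, Msx1 is needed for the palate and teeth, Msx2 for the skull vault, and Dlx3, Dlx5 and Msx2 bind the promoters of bone genes.

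Library totals lay between 19.9 M and 64.7 M counts, with a median of 26.8 M, where M stands for 1e+06. Levels are given as CPM, counts per M after TMM scaling, a library scaling that assumes most genes do not differ. The neural crest and ectomesenchyme markers Twist1, Tfap2a, Prrx1, Sox9, Snai1, Snai2 and Nes were detected in all 8 groups, and Sox10, a marker of early and glial crest, was at 0 in 7 of them. The 3 hypoxic smooth muscle libraries and 1 normoxic osteoblast library stood apart. In the 3 hypoxic smooth muscle libraries 11.6% to 13.3% of counts fell on mitochondrial ribosomal RNA, against at most 0.0889% elsewhere, and their TMM factors were 0.505 to 0.533 against 0.901 to 1.29. The 4 smooth muscle markers summed to 28.5 to 42.3 CPM there, against 3323 to 3757 in normoxic smooth muscle and 36.3 to 43.3 in hypoxic proliferating cells. With TMM scaling, 2 of the 4 could be tested against hypoxic proliferating cells: Tagln was higher (log2 0.47, edgeR adjusted p = 0.028) and Acta2 was not called (-0.37, adjusted p = 0.152). The blood marker Cd68 with Ptprc summed to 33.0 to 36.4 CPM there, against at most 5.41 elsewhere. The 4 smooth muscle markers summed to 3064 to 4682 CPM in normoxic osteoblast libraries. The 7 bone genes listed below summed to 6710 to 10510 CPM in those libraries, against 38550 to 46960 CPM in normoxic chondrocyte libraries. Normoxic osteoblast replicate 4 is described with the values it touches. In bulk RNA, fewer expressing cells and less RNA per cell cannot be told apart.

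The 6 Dlx genes form 3 pairs of neighbours that point towards each other. On GRCm38 (mm10), Dlx1 (ENSMUSG00000041911) covers chromosome 2 from 71528113 to 71533981 on the plus strand, and Dlx2 (ENSMUSG00000023391) covers 71543408 to 71546754 on the minus strand, 9426 bases away. Dlx3 (ENSMUSG00000001510) covers chromosome 11 from 95120119 to 95125296 on the plus strand, and Dlx4 (ENSMUSG00000020871) covers 95140447 to 95146263 on the minus strand, 15150 bases away. Dlx6 (ENSMUSG00000029754) covers chromosome 6 from 6863334 to 6868568 on the plus strand, and Dlx5 (ENSMUSG00000029755) covers 6877805 to 6882085 on the minus strand, 9236 bases away. Msx1 (ENSMUSG00000048450) lies on chromosome 5 from 37820485 to 37824583 and Msx2 (ENSMUSG00000021469) on chromosome 13 from 53466884 to 53473074, both on the minus strand. Antisense genes overlap 3 members: Dlx1as covers Dlx1 over 5869 bases, Dlx4os overlaps Dlx4 over 1212 bases and Dlx6os1 covers Dlx6 over 5235 bases. Dlx6os2, on the strand opposite to Dlx6, overlaps it over 1354 bases. The kit kept strand, but the use of strand in counting is not given in the sources used here, so reads of these partners may be shared. Counts assigned to Dlx1as were 28 to 474 per group, and per length Dlx1 exceeded it 6.84 to 16.4 times over the groups. Dlx6os2 had 29 counts in all, of which 21 were in normoxic chondrocyte, 5 in normoxic osteoblast and 3 in normoxic smooth muscle libraries, against 665 of Dlx6. Dlx4os had 0 counts, and the antisense gene that covers Dlx6 was not analysed here.

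The 8 genes fell into 3 levels. Dlx1 and Dlx2 were present in every library, at 23.9 CPM or more. Msx1 was also present throughout and spanned the widest range among those 3, from 1.296 to 246 CPM. Dlx5, Dlx6 and Msx2 were at or near 0 in proliferating cells and were higher by mean in chondrocyte and osteoblast cultures. Dlx3 was low throughout, and 155 of its 157 counts in normoxic osteoblast libraries came from replicate 4. Dlx4 had 4 counts in all 28 libraries, 1 in normoxic smooth muscle replicate 3 and 3 in hypoxic osteoblast replicate 1, and is not discussed further.

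**Figure D1:**
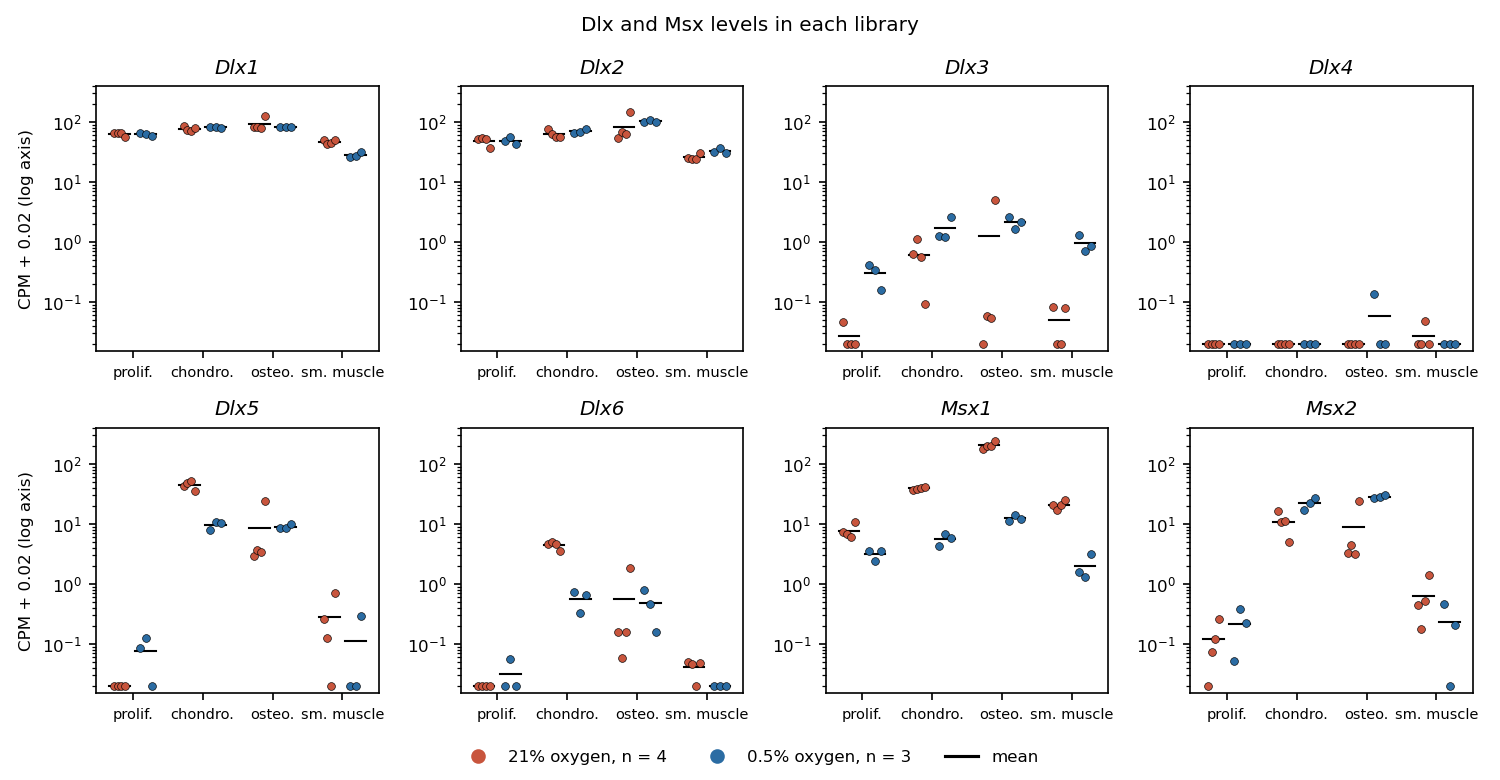
Level of each of the 8 genes in every library, in CPM plus 0.02 on a log axis, with the 8 groups along the horizontal axis, 1 point per library. Dlx1 and Dlx2 are high in every group, Msx1 is highest in normoxic osteoblast libraries (176 to 246 CPM), and Dlx5 is highest in normoxic chondrocyte libraries (36.0 to 52.8 CPM).

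In the normoxic differentiation comparisons the members were mostly higher than in proliferating cells. A gene was called at a Benjamini-Hochberg adjusted p under 0.05 over all genes in edgeR's quasi-likelihood test. In chondrocyte cultures 6 of the 8 members passed the filter on low counts and 6 were called higher and 0 lower, where 37.7% of all genes tested were called higher and 37.2% lower. In osteoblast cultures 5 passed the filter and 5 were called higher, where 40.9% of all genes were called higher and 37.8% lower. In smooth muscle cultures 3 passed, of which 1 was called higher and 2 lower, against 40.8% and 38.9% of all genes. Dlx5, Dlx6 and Msx2 were near 0 in proliferating cells and passed the filter through the differentiated group alone, so these counts do not describe members at random.

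The hypoxic differentiation comparisons gave the following counts. Chondrocyte cultures had 6 members called higher of 6 that passed, with 34.9% of all genes called higher and 34.6% lower. Osteoblast cultures also had 6 higher of 6, with 36.2% of all genes called higher and 35.1% lower. Smooth muscle cultures had 1 member called higher and 2 lower, with 33.8% of all genes higher and 36.2% lower. Dlx5, Msx2 and Dlx3 had 5, 17 and 25 counts in the 3 hypoxic proliferating libraries, so where they passed the filter they did so through the differentiated group, and their calls add nothing to these counts as support. Scaling by library size alone moved the median of all genes in the hypoxic smooth muscle comparison from -0.07 to -1.35 on the log2 scale and the called genes that were higher from 48.3% to 15.0%. In the chondrocyte comparisons the same scaling moved the median to -0.35 at both oxygen levels, with 34.7% of called genes higher in place of 50.3% under normoxia and 31.8% in place of 50.2% under hypoxia. In the hypoxic osteoblast comparison it moved the median from 0.001 to -0.23. Differences below are relative to the TMM scaling.

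The comparisons between oxygen levels gave these counts. In proliferating cells 1 of 3 members tested was lower and 0 higher, with 32.3% of all genes lower and 33.1% higher. In chondrocyte cultures 3 of 7 were lower and 0 higher, with 11.8% of all genes lower and 10.4% higher. In osteoblast cultures 1 of 7 was lower and 0 higher, with 27.3% of all genes lower and 27.0% higher, and without normoxic replicate 4 the counts were 1 lower and 4 higher of 6. In smooth muscle cultures 2 of 4 were lower and 1 higher, with 40.2% of all genes lower and 35.4% higher. The higher one, Dlx2, was called lower with library size alone, where 15.6% of called genes were higher in place of 46.8%. Msx1 was the member lower in all 4 and makes up 4 of the 7 lower calls, and in proliferating and osteoblast cultures the members' share lower was near or below that of all genes.

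**Figure D2:**
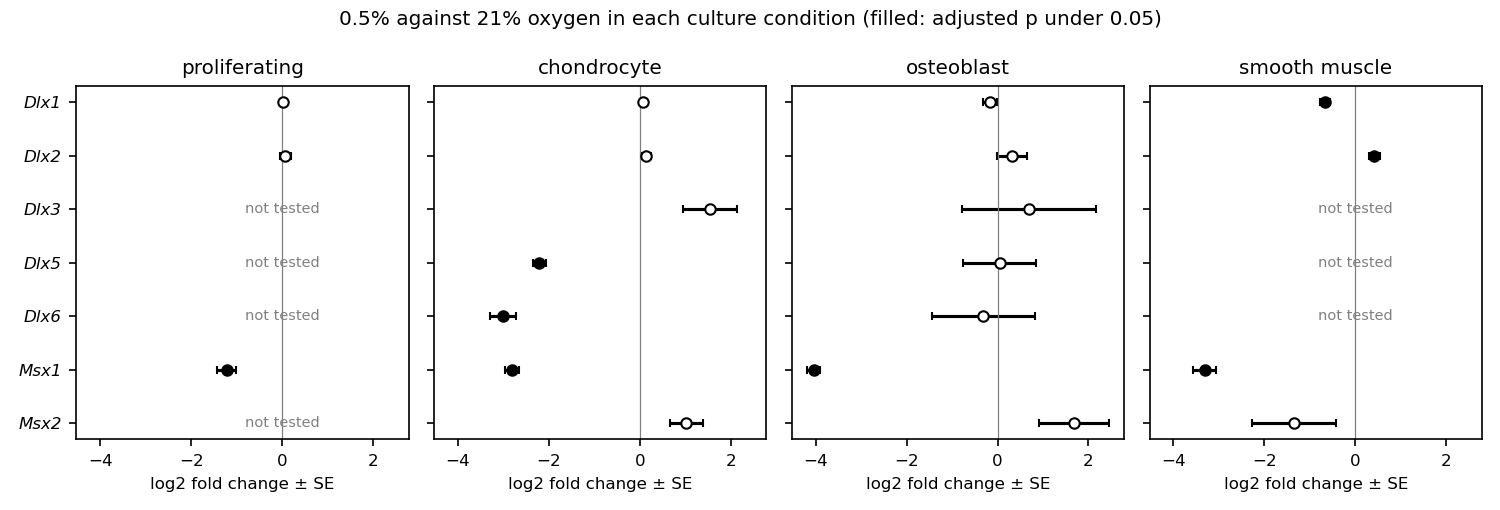
Log2 fold change, hypoxic over normoxic, for each member tested in each of the 4 culture conditions. Bars show the SE, here the absolute log2 fold change divided by the square root of the test's F value. Filled points passed the adjusted p threshold of 0.05. Msx1 lies between -4.04 and -1.22 in all 4 conditions, and Dlx5 and Dlx6 are below 0 and filled in chondrocyte cultures.

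Dlx1 and Dlx2, the pair expressed along the whole arch, varied least. Dlx1 was at 67.0, 65.8, 64.98 and 56.6 CPM in the normoxic proliferating libraries and at 64.7, 62.7 and 59.0 CPM in the hypoxic ones. It was at 85.8, 72.6, 70.0 and 78.4 CPM in normoxic chondrocyte and at 82.4, 82.7 and 79.3 CPM in hypoxic chondrocyte libraries. Every chondrocyte library was above every proliferating one, and within each condition the oxygen levels overlapped. In osteoblast libraries Dlx1 was at 83.4, 82.9, 80.2 and 124 CPM (normoxic) and at 82.7, 83.5 and 81.3 CPM (hypoxic). Only normoxic replicate 4 lay outside a narrow band there. In smooth muscle libraries Dlx1 was at 49.5, 42.9, 44.5 and 51.3 CPM (normoxic) and at 26.5, 27.5 and 31.2 CPM (hypoxic), both apart from the proliferating libraries and from each other.

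Outside hypoxic smooth muscle these differences of Dlx1 were under 1 on the log2 scale. Against normoxic proliferating cells, its log2 fold change was 0.35 (SE 0.077, edgeR adjusted p = 0.00141) in chondrocyte, 0.60 (SE 0.142, adjusted p = 0.00321) in osteoblast and -0.38 (SE 0.071, adjusted p = 0.000129) in smooth muscle cultures. Without normoxic osteoblast replicate 4 the osteoblast value was 0.38 (adjusted p = 3.41e-05). Against hypoxic proliferating cells the values were 0.38 (adjusted p = 0.000109), 0.41 (adjusted p = 0.000115) and -1.01 (adjusted p = 2.98e-06). With library size alone the chondrocyte values became -0.0011 under normoxia and 0.05 under hypoxia, and neither was called, and the hypoxic smooth muscle value became -2.29 (adjusted p = 3.84e-09). Hypoxic and normoxic libraries differed in smooth muscle cultures (-0.67, SE 0.108, adjusted p = 5.15e-05, or -2.04 with library size alone). The oxygen differences of 0.02 in proliferating (adjusted p = 0.779), 0.08 in chondrocyte (adjusted p = 0.53) and -0.17 in osteoblast cultures (adjusted p = 0.377) did not pass.

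Dlx2 was lowest in smooth muscle cultures and, under hypoxia, highest in osteoblast cultures. It was at 51.3, 53.8, 51.6 and 37.3 CPM in normoxic proliferating and at 47.9, 55.9 and 43.2 CPM in hypoxic proliferating libraries, which overlapped. Chondrocyte libraries had 75.6, 62.9, 55.8 and 56.3 CPM (normoxic) and 65.4, 68.4 and 75.5 CPM (hypoxic), again overlapping. Osteoblast libraries had 55.0, 67.3, 63.5 and 145 CPM (normoxic) and 101, 107 and 101 CPM (hypoxic). The 3 hypoxic osteoblast libraries lay above normoxic replicates 1 to 3 and below replicate 4, and normoxic replicates 1 to 3 overlapped with normoxic chondrocyte libraries. In smooth muscle libraries Dlx2 was at 25.5, 24.2, 23.9 and 30.9 CPM (normoxic) and at 31.9, 37.4 and 31.0 CPM (hypoxic), which did not overlap.

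Under normoxia Dlx2 rose by 0.44 (SE 0.126, edgeR adjusted p = 0.00763) in chondrocyte and by 0.83 (SE 0.292, adjusted p = 0.0257) in osteoblast cultures on the log2 scale, and fell by 0.84 in smooth muscle cultures (SE 0.110, adjusted p = 7.79e-06). Without normoxic osteoblast replicate 4, at 145 CPM, the osteoblast value was 0.36 (adjusted p = 0.015). The osteoblast call was lost without normoxic proliferating replicate 4, the library at 37.3 CPM (0.72, adjusted p = 0.0742), with library size alone (0.69, adjusted p = 0.0582) and with no filter on low counts (0.81, adjusted p = 0.0956). Under hypoxia Dlx2 rose by 0.50 (SE 0.0958, adjusted p = 0.000478) and 1.07 (SE 0.0908, adjusted p = 4.41e-08) in chondrocyte and osteoblast cultures and fell by 0.43 (SE 0.124, adjusted p = 0.00851) in smooth muscle cultures. With library size alone the chondrocyte value of Dlx2 was 0.10 (adjusted p = 0.494) under normoxia and 0.17 (adjusted p = 0.138) under hypoxia. Within smooth muscle cultures Dlx2 was higher under hypoxia by 0.42 (SE 0.123, adjusted p = 0.00647), and lower with library size alone (-0.95, adjusted p = 3.73e-06), a comparison whose all-gene median moved from -0.12 to -1.49. In 1 fit over all 8 groups that call of Dlx2 was lost (0.35, adjusted p = 0.176), as were those in normoxic chondrocyte (adjusted p = 0.118), hypoxic chondrocyte (adjusted p = 0.0701) and hypoxic smooth muscle cultures (adjusted p = 0.0532). The oxygen difference did not pass in proliferating (0.07, adjusted p = 0.646), chondrocyte (0.15, adjusted p = 0.391) or osteoblast cultures (0.31, adjusted p = 0.456).

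The balance within the pair differed between groups. Per kilobase of exon, Dlx1 stood at 0.680 times Dlx2 in normoxic proliferating cells and at 0.673 times in hypoxic ones. The ratio was 0.952 in normoxic smooth muscle (0.879 to 1.03 over libraries) and 0.450 in hypoxic smooth muscle (0.389 to 0.532), and the libraries did not overlap. It was 0.424 in hypoxic osteoblast libraries (0.415 to 0.433), below each of the normoxic osteoblast libraries (0.454 to 0.801). A ratio within a library does not depend on the scaling.

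Promoter sequences of Dlx2 and Msx1 are shown, a pair chosen after their values were seen, because Msx1 was lower under hypoxia in all 4 conditions and Dlx2, with TMM scaling, was called lower in none. The windows of Dlx1 and Msx2 are not printed: that of Dlx1 held none of the motifs below, and that of Msx2 held TAATTA at -187 and CCAAT at -124. The windows are the 250 bases before the annotated start on GRCm38.p6, from RefSeq, 5′ to 3′ on the gene's own strand. Capitals mark matches, on either strand, to GGCGCC (a BMP Smad core), ACGTG (the core bound by hypoxia-inducible factors) and CCAAT (a general promoter element); TAATTA (a homeodomain core) was searched as well. In Dlx2 (chr2:71546755-71547004, minus strand) each CACGTG holds ACGTG on both strands and was counted as 1 site, at -142 and -42, with GGCGCC at -99 and CCAAT, read as ATTGG, at -74, positions being those of the first base of a match before the start.
Dlx2: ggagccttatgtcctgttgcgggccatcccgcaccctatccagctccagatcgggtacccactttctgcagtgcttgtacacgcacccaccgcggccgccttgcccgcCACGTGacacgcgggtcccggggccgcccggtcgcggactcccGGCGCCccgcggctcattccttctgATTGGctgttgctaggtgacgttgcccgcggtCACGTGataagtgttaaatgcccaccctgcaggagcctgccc
Msx1: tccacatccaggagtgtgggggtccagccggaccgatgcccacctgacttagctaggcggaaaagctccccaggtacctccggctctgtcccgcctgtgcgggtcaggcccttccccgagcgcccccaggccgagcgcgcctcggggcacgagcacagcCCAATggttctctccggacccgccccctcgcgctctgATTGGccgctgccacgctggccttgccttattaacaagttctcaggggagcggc
The Msx1 window (chr5:37824586-37824835, minus strand) holds CCAAT at -91 and -54 and none of the other 3 motifs. Among 32817 mouse windows of this length, 9.59% hold GGCGCC, 16.6% hold ACGTG, 4.85% hold TAATTA and 33.8% hold CCAAT. These matches describe letters in a short window and are not evidence of binding.

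Dlx3, expressed near the tip of the arch and in developing bone and skin appendages, was low everywhere, with 606 counts in all. It had 1 count in the 4 normoxic proliferating libraries and 25 in the 3 hypoxic ones (0.390, 0.323 and 0.137 CPM), a ratio of 48.2 with a 95% counting interval of 8.65 to 1903, which covers counting error only. Chondrocyte libraries had 0.617, 1.09, 0.533 and 0.0728 CPM under normoxia and 1.22, 1.18 and 2.63 CPM under hypoxia, without overlap. The fitted difference of 1.54 did not pass edgeR's threshold (SE 0.590, adjusted p = 0.09) and did with DESeq2 (adjusted p = 0.0462).

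In osteoblast libraries Dlx3 was at 0, 0.0394, 0.0339 and 4.96 CPM under normoxia, so that 155 of the group's 157 counts came from replicate 4. Hypoxic osteoblast libraries were at 2.55, 1.62 and 2.15 CPM, between replicate 4 and the other 3. From hypoxic proliferating cells Dlx3 rose by 2.54 (SE 0.496, edgeR adjusted p = 0.000476) in chondrocyte and by 2.86 (SE 0.419, adjusted p = 1.9e-05) in osteoblast cultures on the log2 scale. The chondrocyte call was lost in 1 fit over all 8 groups (2.55, adjusted p = 0.0694). Hypoxic smooth muscle libraries were at 1.28, 0.698 and 0.834 CPM, 17, 7 and 9 counts, and normoxic ones at 0.0583 and 0.0612 CPM in 2 libraries and 0 in the other 2. The call against hypoxic proliferating cells (1.84, SE 0.649, adjusted p = 0.0248) was lost with library size alone (adjusted p = 0.415), in 1 fit over all 8 groups (adjusted p = 0.246) and without any 1 of the hypoxic proliferating libraries or hypoxic smooth muscle replicate 1 (adjusted p = 0.0665 to 0.129).

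Dlx5 and Dlx6, the pair that marks the lower jaw domain, were absent from the counts of normoxic proliferating cells and highest in normoxic chondrocyte cultures. Dlx5 had 0 counts in the 4 normoxic proliferating libraries and 42.7, 48.1, 52.8 and 36.0 CPM in the 4 normoxic chondrocyte libraries, at least 2544-fold higher when 3 counts over the whole proliferating group are taken as the floor (edgeR adjusted p = 1.27e-09). In normoxic osteoblast libraries it was at 2.93, 3.63, 3.46 and 24.6 CPM, at least 491-fold higher (adjusted p = 0.00132), or at least 189-fold without replicate 4. Normoxic smooth muscle libraries were at 0.245, 0.107, 0 and 0.700 CPM, 36 counts in all, and did not pass the filter. Every chondrocyte library was above every osteoblast library.

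Hypoxic chondrocyte libraries reached a lower level of Dlx5. They were at 8.02, 10.8 and 10.5 CPM, below all 4 normoxic chondrocyte libraries, a mean 4.59-fold lower (log2 -2.21, SE 0.151, edgeR adjusted p = 4.87e-06). Hypoxic osteoblast libraries were at 8.63, 8.42 and 10.1 CPM and the difference from normoxic ones did not pass with all libraries (0.05, adjusted p = 0.963), and did without normoxic replicate 4 (1.44 higher, adjusted p = 2.94e-06). Hypoxic proliferating libraries held 5 counts of Dlx5 and hypoxic smooth muscle libraries 3. From that base Dlx5 rose by 7.31 (SE 0.381, adjusted p = 1.52e-09) in chondrocyte and by 7.20 (SE 0.366, adjusted p = 9.33e-11) in osteoblast cultures on the log2 scale.

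Dlx6 followed its neighbour at a lower level. It had 0 counts in normoxic proliferating libraries and 4.72, 5.05, 4.69 and 3.57 CPM in normoxic chondrocyte libraries, at least 255-fold higher (edgeR adjusted p = 7.34e-08). Hypoxic chondrocyte libraries were at 0.709, 0.315 and 0.624 CPM, 8.21-fold lower than normoxic ones with no overlap (log2 -3.01, SE 0.291, adjusted p = 3.74e-05). Normoxic osteoblast libraries were at 0.140, 0.0394, 0.136 and 1.86 CPM and hypoxic ones at 0.774, 0.447 and 0.141 CPM, a difference that did not pass (-0.31, adjusted p = 0.836). Its sign rests on normoxic replicate 4: the other normoxic libraries had a mean of 0.105 CPM from 9 counts, against 0.454 CPM from 37 counts in the hypoxic ones. Without replicate 4 Dlx6 did not pass the filter. Per kilobase, Dlx5 was at 10.4 times Dlx6 in normoxic chondrocyte libraries (9.49 to 11.8) and at 18.1 times in hypoxic ones (11.9 to 36.0), with 49 counts of Dlx6 behind the latter.

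In the direct comparison of the cultures that contain BMP-2, normoxic osteoblast against normoxic chondrocyte libraries, 2 members were lower and 1 higher, with 28.6% of all genes lower and 31.1% higher. Dlx5 was 5.18-fold lower in osteoblast cultures (log2 -2.34, SE 0.688, edgeR adjusted p = 0.0178) and Dlx6 8.30-fold lower (-2.97, SE 0.821, adjusted p = 0.0123). Without osteoblast replicate 4 the values were -3.73 and -5.31, Msx2 (-1.56, adjusted p = 0.00605) and Dlx3 (-4.33, adjusted p = 0.00307) were lower as well, and 5 members were called, where 34.0% of all genes were called higher and 32.9% lower. With no filter on low counts the call of Dlx5 was lost (adjusted p = 0.0639). Of the 7 bone genes listed below, 0 were higher and 6 lower in normoxic osteoblast cultures (median log2 fold change -2.54 beside 0.031 over all genes). Without replicate 4 all 7 were lower (median -5.22). Under hypoxia the libraries of these cultures overlapped for Dlx5 and Dlx6. There 3 members were higher in osteoblast cultures and 0 lower, with 29.0% of all genes higher and 28.6% lower: Msx1 (1.14, SE 0.182, adjusted p = 0.000146), Dlx2 (0.55, SE 0.0847, adjusted p = 9.8e-05) and Msx2 (0.37, SE 0.145, adjusted p = 0.0442). The call of Msx2 was lost when any of 5 of the 6 libraries was left out, and in 1 fit over all 8 groups (adjusted p = 0.634), as was that of Dlx2 (adjusted p = 0.0522).

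Msx1, whose loss causes cleft palate and missing teeth, showed the clearest order of groups. It was at 7.32, 6.88, 6.06 and 10.9 CPM in normoxic proliferating libraries and at 3.54, 2.44 and 3.59 CPM in hypoxic ones. Chondrocyte libraries were at 37.3, 38.7, 40.3 and 41.7 CPM (normoxic) and at 4.22, 6.85 and 5.95 CPM (hypoxic). Osteoblast libraries were at 176, 200, 201 and 246 CPM (normoxic) and at 11.4, 13.98 and 12.0 CPM (hypoxic). The oxygen levels did not overlap in any of these conditions, and the highest hypoxic osteoblast library was below the lowest normoxic smooth muscle library. Smooth muscle libraries were at 20.5, 17.3, 20.4 and 25.0 CPM (normoxic) and at 1.58, 1.296 and 3.15 CPM (hypoxic). By mean level the order was normoxic osteoblast, normoxic chondrocyte, normoxic smooth muscle, hypoxic osteoblast and normoxic proliferating cells, each apart from the next. Normoxic proliferating and hypoxic chondrocyte libraries overlapped, as did hypoxic proliferating and hypoxic smooth muscle libraries.

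Under normoxia Msx1 rose in every differentiated culture: 26.4-fold in osteoblast (log2 4.79, SE 0.203, edgeR adjusted p = 3.11e-08), 5.07-fold in chondrocyte (2.43, SE 0.156, adjusted p = 5.56e-08) and 2.67-fold in smooth muscle cultures (1.48, SE 0.172, adjusted p = 4.15e-06). Under hypoxia it rose 3.91-fold in osteoblast (1.96, SE 0.170, adjusted p = 5.41e-08) and 1.78-fold in chondrocyte cultures (0.82, SE 0.225, adjusted p = 0.00571), and the smooth muscle value of -0.56 did not pass (adjusted p = 0.222). With library size alone the hypoxic chondrocyte value was 0.49 (adjusted p = 0.0697) and the smooth muscle value was lower and called (-1.82, adjusted p = 0.0011). The smooth muscle value also passed without hypoxic smooth muscle replicate 3 (-1.03, adjusted p = 0.0311).

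Msx1 was lower under hypoxia by 2.44-fold in proliferating (log2 -1.22, SE 0.219, edgeR adjusted p = 0.000272), 6.96-fold in chondrocyte (-2.81, SE 0.146, adjusted p = 5.13e-07), 16.5-fold in osteoblast (-4.04, SE 0.148, adjusted p = 1.65e-07) and 10.4-fold in smooth muscle cultures (-3.31, SE 0.255, adjusted p = 1.5e-08, or -4.68 with library size alone). Leaving out any 1 library kept each of these calls, with values from -1.32 to -1.03, -2.96 to -2.63, -4.13 to -3.95 and -3.79 to -3.13 in the same order.

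Whether the rise from the proliferating state itself differed with oxygen was tested as an interaction, the hypoxic change minus the normoxic change. For Msx1 it was -1.58 in chondrocyte (SE 0.278, edgeR adjusted p = 0.000223), -2.79 in osteoblast (SE 0.274, adjusted p = 1.18e-06) and -2.06 in smooth muscle cultures (SE 0.359, adjusted p = 2.75e-05). In the chondrocyte test 3 members were lower and 0 higher, with 21.9% of all genes lower and 21.6% higher. In the osteoblast test Msx1 alone was called, lower, with 25.3% of all genes lower and 28.9% higher. In the smooth muscle test 2 were lower and 0 higher, with 35.5% lower and 34.9% higher over all genes; the other was Dlx1 (-0.65, SE 0.124, adjusted p = 7.92e-05). The values for Dlx5 (-6.22, adjusted p = 0.00315) and Dlx3 (-3.38, adjusted p = 0.0401) in chondrocyte cultures rest on 0 counts and 1 count in normoxic proliferating cells, and their size depends on how the fit treats low counts. In 1 fit over all 8 groups neither was called (adjusted p = 0.285 for Dlx5 and 0.287 for Dlx3), and limma-voom did not call Dlx3 (-2.24, adjusted p = 0.157). With 1 library left out at a time, Dlx3 kept its call in 4 of 14 fits.

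Msx2, the relative of Msx1 that acts in skull bone and responds directly to BMP, was not lower under hypoxia in chondrocyte and osteoblast cultures. It was at 0, 0.0540, 0.0994 and 0.245 CPM in normoxic proliferating libraries and at 0.0325, 0.359 and 0.205 CPM in hypoxic ones. Chondrocyte libraries were at 16.4, 10.7, 11.2 and 4.99 CPM (normoxic) and at 17.0, 22.9 and 26.7 CPM (hypoxic). The hypoxic chondrocyte libraries were all above the normoxic ones, narrowly so at the nearest pair. Osteoblast libraries were at 3.28, 4.42, 3.19 and 24.6 CPM (normoxic) and at 27.6, 28.5 and 30.3 CPM (hypoxic), again without overlap. Smooth muscle libraries were at 0.429, 0.161, 0.493 and 1.37 CPM (normoxic) and at 0.450, 0 and 0.185 CPM (hypoxic), which overlapped with proliferating cells.

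Msx2 rose 108-fold in normoxic chondrocyte (log2 7.03, SE 0.585, edgeR adjusted p = 1.61e-06) and 89.0-fold in normoxic osteoblast cultures (6.71, SE 1.06, adjusted p = 0.000239), from 14 counts in the proliferating group. Without normoxic osteoblast replicate 4 the osteoblast value was 5.37 (adjusted p = 3.36e-07). Under hypoxia it rose 112-fold (6.80, SE 0.367, adjusted p = 9.09e-08) and 145-fold (7.18, SE 0.257, adjusted p = 1.51e-12) in the same cultures, from 17 counts. The oxygen difference did not pass in edgeR's test with all libraries, at 1.03 in chondrocyte (SE 0.366, adjusted p = 0.0939) and 1.68 in osteoblast cultures (SE 0.772, adjusted p = 0.108). In chondrocyte cultures Msx2 was called higher under hypoxia without normoxic replicate 1 (1.31, adjusted p = 0.0279) or without replicate 4 (0.79, adjusted p = 0.0307). Leaving out normoxic chondrocyte replicate 1 brought the calls in that comparison from 3 to 5, the fifth being Dlx2 (0.26, adjusted p = 0.0461). In osteoblast cultures it was called higher without normoxic replicate 4 (2.99, adjusted p = 7.42e-10), with limma-voom (2.27, adjusted p = 0.00978) and in 1 fit over all 8 groups (1.69, adjusted p = 0.0148).

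The 2 Msx genes exchanged places with oxygen in these cultures. Per kilobase of exon, Msx1 stood at 3.77 times Msx2 in normoxic chondrocyte libraries (2.41 to 8.86) and at 0.267 times in hypoxic ones (0.235 to 0.317). In osteoblast cultures the ratio was 23.5 under normoxia (10.6 to 66.7) and 0.460 under hypoxia (0.421 to 0.520). The lowest normoxic value, 10.6, belongs to replicate 4, so that library kept the normoxic order although its Msx2 level came close to the hypoxic ones. The ratio was 96.4 in normoxic proliferating cells and 17.6 in hypoxic ones, where it rests on 14 and 17 counts of Msx2. Dlx5 was at 5.87 times Msx2 in normoxic and 0.635 times in hypoxic chondrocyte libraries, and at 1.42 and 0.456 times in the osteoblast groups.

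**Figure D3:**
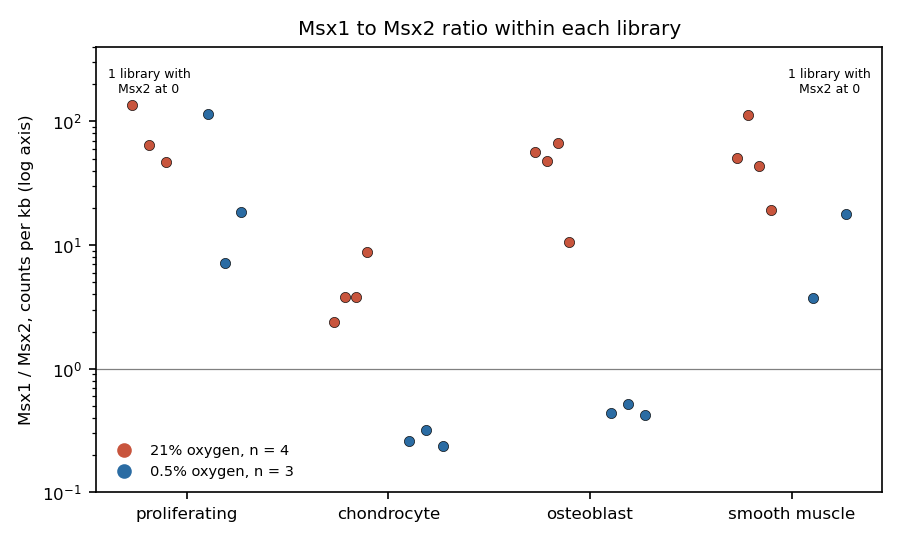
Ratio of Msx1 to Msx2 per kilobase of exon in each library on a log axis, by group; libraries with no Msx2 count are left out. All chondrocyte and osteoblast libraries at 21% O2 lie above 1 (2.41 or more) and all at 0.5% O2 lie below 1 (0.520 or less).

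Normoxic osteoblast replicate 4 stood above the other 3 libraries of its group for 7 of the 7 members with counts. Over all 18848 genes with over 3 counts in the group, this library was the highest for 36.9% and the lowest for 36.0%. Its level over the mean of the others was 1.51 times for Dlx1, 2.34 times for Dlx2, 7.38 times for Dlx5, 17.7 times for Dlx6, 1.28 times for Msx1 and 6.78 times for Msx2. The others were close together: Dlx5 was at 3.34 ± 0.361 CPM (SD, n = 3), Msx2 at 3.63 ± 0.683 CPM and Msx1 at 192 ± 13.9 CPM. Of 7 bone genes 6 were highest in replicate 4, with Sp7, an osteoblast regulator, at 45.4 against 0.670 to 1.36 CPM, and 1 was lowest, Runx2 at 57.1 against 59.6 to 69.1 CPM. Of 4 cartilage markers 3 were highest, with Col2a1 at 775 against 35.6 to 43.6 CPM, and 1 was lowest, Col11a1 at 1450 against 1626 to 1645 CPM. All 4 smooth muscle markers were highest there, and of 7 neural crest markers 4 were highest and 3 lowest. Of markers with over 3 counts, the 2 endothelial ones (Pecam1 at 2.53 against 0.118 to 0.419 CPM) and the 1 blood marker were also highest. Those of epithelium, forebrain neurons and skeletal muscle were neither highest nor lowest. All 10 BMP target and feedback genes listed were highest in replicate 4, with the inhibitory Smad7 at 90.6 against 33.0 to 39.3 CPM. The part of these genes in the members' levels was not tested. Without replicate 4, 5 members were called between oxygen levels in place of 1, where 32.9% of all genes were called higher and 32.7% lower: Msx2, Dlx2 (0.73, edgeR adjusted p = 3.43e-06), Dlx3 (6.21, adjusted p = 1.2e-06) and Dlx5 were higher under hypoxia and Msx1 remained lower (-3.95, adjusted p = 2.98e-12).

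**Figure D4:**
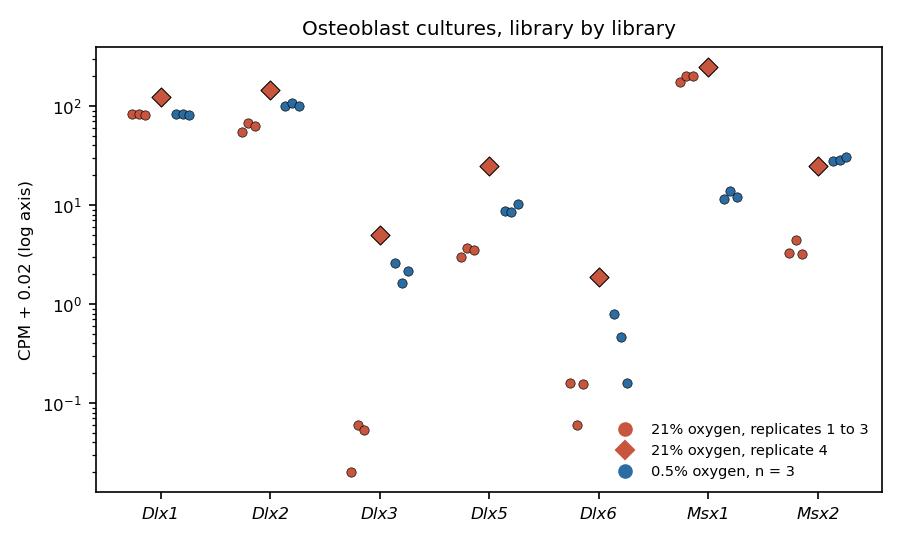
CPM of the members in the osteoblast libraries on a log axis, normoxic and hypoxic, 1 point per library; the diamond is normoxic replicate 4. The diamond lies above the other 3 normoxic libraries for each member with counts, and for Msx1 all normoxic libraries (176 to 246 CPM) lie above all hypoxic ones (11.4 to 13.98 CPM).

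Genes of the signals that lie upstream were listed as 18 endothelin and BMP ligands, receptors and signal carriers. In normoxic chondrocyte cultures 13 of 17 tested were higher than in proliferating cells and 1 lower, with a median log2 fold change of 1.11 beside -0.003 over all genes tested. The endothelin receptor Ednra (6.997), the BMP-regulated Smad9 (6.38) and the BMP receptor Bmpr1b (3.57) rose most. In normoxic osteoblast cultures 11 of 16 were higher and 3 lower (median 0.825 beside 0.066), with Smad9 at 6.51, the ligand Bmp4 at 5.86 and Ednra at 5.21. In normoxic smooth muscle cultures, in which Dlx5 and Dlx6 stayed near 0, 11 of 17 were higher and 2 lower (median 0.685 beside 0.028), and Ednra (6.47) and Bmp4 (5.66) were among them. The part of these inputs in the members' levels was not tested.

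Differences with oxygen in these inputs are given by culture. The interaction test, which sets the oxygen difference of a culture against that of proliferating cells, called 2 of 17 higher and 7 lower for chondrocyte, 2 of 16 higher and 2 lower for osteoblast and 2 of 17 higher and 12 lower for smooth muscle cultures. Over all genes tested, the shares higher and lower were 21.6% and 21.9%, 28.9% and 25.3%, and 34.9% and 35.5% in the same order. The differentiated cultures were not tested against each other by an interaction. In chondrocyte cultures 3 of 17 were lower and 1 higher (median -0.092 beside -0.006), where 11.8% of all genes were lower and 10.4% higher. There Ednra fell by 2.63 and its downstream factor Mef2c by 0.54 on the log2 scale, while Smad9 rose by 1.13. A link of these values to the lower Dlx5 and Dlx6 in those cultures was not tested. In osteoblast cultures 9 of 16 were higher and 5 lower (median 0.343 beside -0.032), with the ligand Edn1 at 2.68, Smad9 at 2.07 and the ligand Bmp2 at -1.24. In proliferating cells 8 of 14 were higher and 2 lower (median 0.196 beside 0.015). In smooth muscle cultures 12 of 17 were lower and 2 higher (median -1.07 beside -0.12), in the libraries rich in mitochondrial ribosomal RNA.

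The 10 BMP target and feedback genes listed belong to the pathway that lies upstream of the Msx genes. Their link to the Msx levels was not tested. In normoxic chondrocyte cultures 8 of 10 were higher and 2 lower (median 2.56 beside -0.003), with Atoh8 at 5.37, the inhibitory Smad6 at 5.13 and the antagonist Nog at 4.22. In normoxic osteoblast cultures 7 of 10 were higher and 0 lower (median 1.97 beside 0.066), led by Nog (6.12), Smad6 (5.07) and Atoh8 (5.00). Nog was at 75.1 CPM in replicate 4 and at 0.978 to 1.76 CPM in the others, and its value without replicate 4 was 2.22, with the same counts of the list and a median of 1.69, where 41.7% of all genes were called higher and 40.8% lower. Under hypoxia 8 of 10 were higher and 2 lower in chondrocyte cultures (median 1.88 beside -0.021) and 9 of 10 higher and 0 lower in osteoblast cultures (median 2.22 beside 0.001). Between oxygen levels, 5 of 10 were higher and 0 lower in osteoblast cultures (median 0.753 beside -0.032), among them the antagonist Grem1 (1.52), Atoh8 (1.33) and Smad7 (1.29), where Msx1 was lower and Msx2 did not pass. Without normoxic replicate 4, 10 of 10 were higher (median 1.15). In chondrocyte cultures 3 were higher and 3 lower (median 0.175 beside -0.006), with Nog at -1.79. In proliferating cells 5 of 9 were higher and 2 lower (median 0.435 beside 0.015), and in smooth muscle cultures 2 of 9 were higher and 6 lower (median -1.03 beside -0.12).

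Of 21 arch patterning transcription factors that act with or after the Dlx genes, several were missing. Hand1 and Hand2, which act after Dlx5 and Dlx6 at the tip of the arch, had 0 counts in all 8 groups, also in the normoxic chondrocyte libraries in which Dlx5 was highest. In normoxic chondrocyte cultures 7 of 14 tested were higher and 4 lower (median 0.331 beside -0.003): Alx4 was at least 837-fold higher and Nkx3-2, a joint and cartilage factor, at least 84.6-fold higher, both from 0 counts, and Lhx6, a factor of the oral side of the arch, fell by 3.19. In normoxic osteoblast cultures 7 of 13 were higher and 4 lower (median 0.677 beside 0.066), with Gsc at 2.32 and Foxc1 at 1.78. Alx4 was at least 120-fold higher there, at 5.70 CPM in replicate 4 and 0.780 to 1.18 CPM in the others. Under hypoxia 8 of 11 were lower and 1 higher in proliferating cells (median -0.542 beside 0.015), 5 of 13 lower and 2 higher in chondrocyte cultures (median -0.148 beside -0.006), 7 of 14 lower and 2 higher in osteoblast cultures (median -0.653 beside -0.032) and 10 of 12 lower and 0 higher in smooth muscle cultures (median -0.992 beside -0.12).

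Bone genes bound or regulated by Dlx and Msx proteins were listed as 7. In normoxic chondrocyte cultures 6 of 7 were higher and 0 lower (median 4.80 beside -0.003). In normoxic osteoblast cultures 4 of 6 were higher and 1 lower (median 4.32, or 4.12 with Ibsp, at 0 counts in proliferating cells, set at its bound). In replicate 4 Alpl was at 40.0 against 1.39 to 2.52 CPM and Ibsp at 3.20 against 0.384 to 0.475 CPM. Without that library the counts were the same and the median was 2.41. Under hypoxia 3 of 7 were lower and 0 higher in chondrocyte cultures, where Bglap (osteocalcin) fell by 5.29, Alpl by 1.57 and Spp1 (osteopontin) by 0.84 on the log2 scale. In osteoblast cultures 4 of 6 were higher and 0 lower under hypoxia (median 2.45 beside -0.032), with Ibsp (bone sialoprotein) at 5.89, Spp1 at 2.21 and Runx2 at 1.14. Without normoxic replicate 4, 6 of 6 were higher (median 3.80).

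Other cell types that use the same homeobox genes were checked by their markers. Forebrain inhibitory neurons express Dlx1, Dlx2, Dlx5 and Dlx6, and of their markers Slc32a1 was at 0 in all groups and Gad1 in all but hypoxic osteoblast. Gad2, another of them, was at 1.23 to 1.49 CPM in normoxic and 1.40 to 1.62 CPM in hypoxic proliferating libraries, 0.687 to 0.960 CPM in normoxic and 0.197 to 0.354 CPM in hypoxic chondrocyte libraries and at most 0.158 CPM in normoxic osteoblast and smooth muscle libraries. In hypoxic osteoblast libraries it was at 1.37 to 3.56 CPM, higher than in normoxic ones (5.95, SE 0.821, edgeR adjusted p = 0.000308), and its part in the member levels was not tested. Oral epithelium expresses Dlx3 and Msx2, and its 4 markers summed to 3.13 to 6.85 CPM in normoxic and 6.67 to 11.5 CPM in hypoxic chondrocyte libraries, mostly Krt14, against at most 1.54 CPM elsewhere. That sum was at most 1.24 CPM in hypoxic osteoblast libraries, in which Dlx3 and Msx2 were highest by mean. The part of epithelial cells in the Dlx3 and Msx2 levels was not tested in any group. Endothelial markers summed to at most 7.62 CPM and skeletal muscle markers to at most 0.203 CPM.

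The genes most like each member over the 28 libraries were found by Pearson correlation of log2 CPM among 13211 genes. The libraries share groups and media, so the values are descriptive. Dlx5 ran with Col2a1 (r = 0.974), Col6a2 (0.968) and the crest factor Snai1 (0.967). Dlx6 ran with Panx3 (0.955), Kcnj15 (0.942) and the cartilage collagen gene Col11a2 (0.941). Msx2 ran with Nebl (0.963), the ligand Wnt4 (0.959) and the Notch target Hey1 (0.958), and Msx1 with Tsc22d1 (0.938), Ak3 (0.911) and Abi3bp (0.910). Dlx2 ran with Col15a1 (0.921), Mcf2l (0.872) and the glucocorticoid-induced Fkbp5 (0.872), and Dlx3 with Adgrg1 (0.881), Smad7 (0.877) and Acadvl (0.846). Dlx1 ran with Hs2st1 (0.929), Esyt2 (0.926) and Tmx1 (0.925), values that were 0.804, 0.808 and 0.791 without the hypoxic smooth muscle libraries.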

How the data were processed

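Polyadenylated RNA of O9-1 cells was sequenced from a stranded library kit, per the labels' protocols. The authors deposited a table of raw read counts per Ensembl gene and 10 tables with log2 fold changes and p-values for pairs of groups. The submitters' processing notes name mm10, HISAT2 2.0.5, StringTie 1.3.3b and featureCounts 1.5.0-p3; the annotation and the strand setting are not given in the sources used here. The members, gene lists and tests were chosen with earlier results of these data known. Symbols were found for 54330 of 54429 genes, and gene positions come from GENCODE. Of the deposited columns, 70 hold normalised values per library and were not used.

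Counts were tested with edgeR 4.0.16 in R 4.3.3 (quasi-likelihood, robust, two-sided, TMM, filterByExpr with at least 10 counts in enough libraries and 15 in all), each of the 12 pairwise comparisons on its own groups and each of 3 interactions on its 4 groups. The Benjamini-Hochberg adjustment ran over all genes tested. Each edgeR SE is the absolute log2 fold change divided by the square root of the F value. It is derived from the test, is not a fitted standard error and is least reliable at low counts. CPM were scaled over the 28 libraries. A fold against a group at 0 counts uses a floor of 3 counts over the group. All 8 members were named whatever their values, with up to 3 called genes of largest change per list and comparison and the 3 genes most alike. A few list genes were named after their values were seen: Sp7, Runx2, Col2a1, Col11a1, Smad7, Alpl, Ibsp, Hand1, Hand2, Krt14, Gad1, Gad2, Slc32a1, Tagln and Acta2. Some listed genes are not reported here. Alternatives were other scalings and filters, DESeq2 1.42.0, voom in limma 3.58.1, 1 fit over all groups, the replicate number as a block and each library left out. Gene lists without normoxic osteoblast replicate 4 were added after seeing the data. The code was tested on simulated data. Of 37 member values called here that are also in the authors' deposited tables, 37 have the same sign there. For Dlx5 and Msx2 in normoxic osteoblast against normoxic proliferating cells, both called here, the authors' table holds no p-value.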

Additional observations from a re-analysis of the deposited data

Results flagged for a closer look

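Dixon's gap criterion was applied to the CPM of each member with counts in the normoxic groups of 4 libraries, 27 tests in all. Its nominal rate of about 1 in 20 is no measure here. A group with 1 count always meets the criterion, and members of 1 library are not independent tests. Of the 27, 10 met it, and 6 of the 10 belong to normoxic osteoblast replicate 4. They are Dlx1 at 124 CPM (others 80.2 to 83.4), Dlx2 at 145 CPM (others 55.0 to 67.3), Dlx3 at 4.96 CPM (others 0 to 0.0394), Dlx5 at 24.6 CPM (others 2.93 to 3.63), Dlx6 at 1.86 CPM (others 0.0394 to 0.140) and Msx2 at 24.6 CPM (others 3.19 to 4.42). Another is Dlx2 in normoxic proliferating replicate 4, at 37.3 CPM where the others were at 51.3 to 53.8. The others rest on 1 to 3 counts in the group: Dlx6 in normoxic smooth muscle replicate 3, at 0 CPM where the others were at 0.0269 to 0.0306, and, from 1 count each, Dlx3 in normoxic proliferating replicate 1 (0.0269 CPM) and Dlx4 in normoxic smooth muscle replicate 3 (0.0290 CPM), with the other libraries of the group at 0.

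The change from the proliferating state differed between oxygen levels, by an interaction term in edgeR's quasi-likelihood test, for Msx1 in chondrocyte (-1.58), osteoblast (-2.79) and smooth muscle cultures (-2.06), for Dlx1 in smooth muscle cultures (-0.65) and for Dlx3 (-3.38) and Dlx5 (-6.22) in chondrocyte cultures, all on the log2 scale as hypoxic minus normoxic change. The last 2 rest on 1 count and 0 counts in the normoxic proliferating group. In 1 fit over all 8 groups they were not called (adjusted p = 0.287 for Dlx3 and 0.285 for Dlx5).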

How the results depend on the processing

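For the 84 fold changes of members, other settings gave 634 values: 575 kept direction and call, 22 lost the call, 19 gained it and 18 changed sign. Leaving out 1 library gave 714 values, of which 650, 20, 16 and 28 fell in the same classes. Msx1 kept its direction in the 4 oxygen comparisons under each setting run. Depth limits Dlx3, Dlx4 and Dlx6 most, and proliferating levels of Dlx5 and Msx2.

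Counts of members called moved as follows. Requiring 10 counts in every library left 3 in normoxic chondrocyte (of 6), 3 in normoxic osteoblast (of 5), 3 in hypoxic chondrocyte and 3 in hypoxic osteoblast cultures (of 6 each) and 1 in the chondrocyte interaction (of 3), since fewer members are then tested. Without a filter normoxic smooth muscle gave 5 (of 3) and oxygen in proliferating cells 2 (of 1). DESeq2 gave 3 for normoxic osteoblast, and voom gave 3 for oxygen in osteoblast cultures (of 1). Library size alone gave 3 for hypoxic chondrocyte and 4 for the smooth muscle interaction (of 2). The fit over all 8 groups gave 1 for hypoxic smooth muscle (of 3), 2 for oxygen in proliferating cells, 2 for oxygen in osteoblast cultures, 1 for hypoxic osteoblast against chondrocyte (of 3) and 1 for the chondrocyte interaction. Leaving out 1 library gave 3 to 5 for oxygen in chondrocyte, 1 to 5 for oxygen in osteoblast, 3 to 5 for normoxic osteoblast against chondrocyte, 1 to 2 for the osteoblast interaction (2 without normoxic osteoblast replicate 4) and 2 to 4 for the smooth muscle interaction (4 without normoxic proliferating replicate 4).

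The labels number the libraries but do not pair them: deviations of same-numbered libraries correlated between -0.177 and 0.081. With the replicate block 3 members were called in the osteoblast interaction. For oxygen in osteoblast cultures 6 were called, where 9269 of 14533 genes tested were called in place of 7890. Replicate 4 has no hypoxic partner, so the block takes up its level. Msx2 was among the 6 (3.00, adjusted p = 4.82e-12). It ended the calls of Dlx2 in normoxic osteoblast (adjusted p = 0.0798) and Dlx3 in hypoxic smooth muscle cultures (adjusted p = 0.074). It also gave -0.02 for Dlx1 and -0.03 for Dlx2 (oxygen, proliferating), 0.01 for Dlx1 and 1.95 for Dlx6 (oxygen, osteoblast) and -1.48 for Dlx3 (normoxic osteoblast against chondrocyte).

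Other values that changed sign were small or rest on few counts, apart from Dlx2 in smooth muscle. With library size alone Dlx1 was at -0.0011 in normoxic chondrocyte, Dlx1 at -0.05 and Dlx2 at -0.004 for oxygen in proliferating, Dlx5 at -0.12 for oxygen in osteoblast, Dlx2 at -0.95 for oxygen in smooth muscle and -0.95 in its interaction, and Dlx3 at -1.29 there. Without a filter Dlx1 was at -0.02 (oxygen, proliferating) and Dlx3 at -0.01 (smooth muscle interaction). DESeq2 gave -0.10 for the latter, the fit over 8 groups -0.03 for the former, and voom 0.68 for Dlx6 (oxygen, osteoblast) and -1.67 for Dlx3 (normoxic osteoblast against chondrocyte). The cause was not tested.

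Leaving out 1 library gave ranges across 0 for oxygen in proliferating (Dlx1 -0.04 to 0.06, Dlx2 -0.05 to 0.15) and osteoblast cultures (Dlx1 -0.24 to 0.005, Dlx5 -0.24 to 1.44, Dlx6 -0.91 to 0.12). That Dlx6 range comes from 6 fits, as Dlx6 did not pass the filter without normoxic osteoblast replicate 4. Ranges also crossed 0 for osteoblast against chondrocyte under normoxia (Dlx3 -4.33 to 1.63, Msx2 -1.56 to 0.02) and hypoxia (Dlx1 -0.01 to 0.04, Dlx6 -0.9 to 0.14). Interaction ranges were -0.91 to 0.52 for Msx2 (chondrocyte), -0.22 to 0.03 for Dlx1, -5.51 to 1.36 for Dlx3 and -0.24 to 1.8 for Msx2 (osteoblast) and -1.2 to 0.61 for Dlx3 (smooth muscle).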

Other observations

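Another Msx gene, Msx3, known for the dorsal neural tube and not among the members, was chosen after its values were seen. It had a mean of 1.49 CPM in normoxic and 2.10 CPM in hypoxic proliferating cells and at most 0.0926 CPM in each of the other 6 groups.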
